A study of Mus musculus with 12 samples.

Results

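Gene expression was described in the vehicle-treated E0771 tumors of a cyclophosphamide (CPA) time course, which make up 2 of its 12 RNA-seq libraries. Both libraries that the labels name as vehicle pools were taken and no other. E0771 is a mouse mammary carcinoma line, here implanted into the fourth mammary fat pad of C57/BL6N female mice, aged 9 to 10 weeks in the vehicle group, and each library was made from RNA pooled from 2 to 3 tumors. Vehicle mice were injected with PBS, and the other 10 libraries come from mice given CPA at 130 mg/kg per the labels, 2 libraries each on days 1, 2, 3 and 6 of the first cycle and on day 12 after a second dose on day 6. All 6 groups share the tumor line, the strain and the sex, while the mice of day 6 were 11 and those of day 12 were 12 weeks old. One of the day 1 libraries is titled as CPA but carries a vehicle entry under treatment, and it is not part of the vehicle values.

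A tumor implanted in the fat pad is a mixture of carcinoma cells and of host cells that enter or surround it. Carcinoma cells of the mammary gland can keep epithelial features, such as keratins and the adhesion proteins EpCAM and E-cadherin, or take on mesenchymal features, such as the intermediate filament vimentin. The host part can hold fibroblasts that lay down collagen, vessels, fat and muscle from the injection site, and white blood cells, of which macrophages are often the most common in mouse tumors. In whole-tumor RNA, fewer cells of a type and less RNA per cell cannot be told apart.

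Values are given in FPKM, counted fragments scaled to the length of the gene in kilobases and to the total of the library. The deposited value of a gene is the mean over both libraries. The value of each library was recovered from it as whole-number counts that fit the mean, at the shortest gene length that fits all groups. Multiples of that length with counts multiplied alike would also fit and give the same FPKM. Whether other solutions exist was not checked. The libraries are called A and B here, A being the one with the larger total, since the mean does not tell which of them is pool 1. Pairs of values are in the order A, B. The scaling totals were 45401633 for A and 44524767 for B, so 1 FPKM in a gene of 1 kilobase stands for 45.4 and 44.5 counts. Fewer counts, 20761559 and 21043661, fell into the table's rows. Whether the totals count the same units as the rows (reads or fragments) is not stated in the sources. The average depth that the study gives for its tumor libraries is smaller than both the totals and these counts, which was not resolved. The absolute scale of values and counts, and with it the 1 FPKM line, is therefore uncertain. The order of genes within a library does not depend on it. With 2 libraries a group, an exact two-sided permutation test of vehicle against 1 CPA group cannot give a p below 0.333, so differences are described by size and overlap and were not tested.

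Of 24197 gene rows, 10282 were at 1 FPKM or more in vehicle tumors and are called expressed, which is 42.5% of all rows. The counts of expressed members of each list below are to be read beside this share. Both libraries reached 1 FPKM for 9986 rows, and only one of them did for 510. The expressed rows had a median of 6.90 FPKM. Of them, 6365 lay between 1 and 10 FPKM, 3565 between 10 and 100, and 352 at 100 or more. A further 7047 rows were listed at 0, 4011 of them in all 12 libraries. An entry of 0 need not mean that a gene was silent, since Hmgcs1, which codes for an enzyme of cholesterol synthesis that most cells use, was listed at 0 throughout. The expressed share was 47.9% of rows that match a protein-coding gene and 5.75% of those that match a long noncoding RNA. On the X chromosome 26.5% of rows were expressed. On the autosomes this share ran from 36.2% on chromosome 7 to 51.1% on chromosome 11. None of the 20 rows placed on the Y chromosome was expressed, and Xist, the RNA that coats the inactive X chromosome, stood at 1.66 and 1.08 FPKM.

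The level of a gene went with the base composition of its promoter, which the choice of samples did not use. RefSeq promoters (GRCm38.p6, 250 bases before to 50 after the start) were found for 16318 protein-coding genes of the table. CpG dinucleotides, sparse in most of the mouse genome and frequent in the promoters of broadly used genes, were at a median of 0.186 times the number expected from base content in promoters of genes listed at 0. This ratio was 0.463 for genes above 0 and under 1 FPKM, 0.775 for 1 to under 10 FPKM and 0.828 at 100 FPKM or more. The TATA box letters TATAAA, searched on both strands, occurred in 13.1% of all these promoters. They were in 27.2% of those of genes at 0, in 5.92% at 1 to under 10 FPKM and in 15.6% at 100 FPKM or more. Counted only on the coding strand in a short stretch before the start, they were in 6.34%, 0.88% and 4.81%, against 2.89% of all. Promoters of genes at 0 had a median GC content of 45.3%, against 57% of all. What part base content has in the motif shares was not tested. The GC box GGGCGG, on either strand, was in 15.8% at 0 and 69.9% at 10 to under 100 FPKM, against 48.6% of all. The CCAAT box differed least between these classes, with 41.3% at 0 and 40.4% at 100 FPKM or more.

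**Figure D1:**
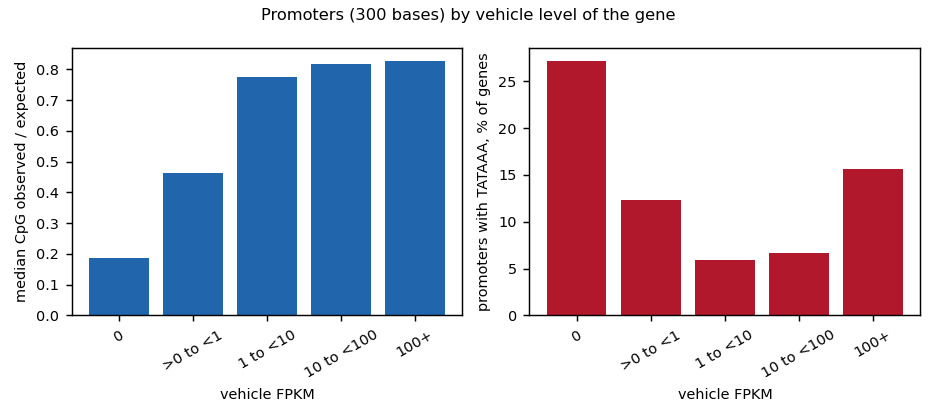
Promoters of protein-coding genes by the authors' mean vehicle FPKM of the gene, with the median CpG observed over expected on the left and the percentage of promoters that hold TATAAA on either strand on the right. CpG content was lowest for genes at 0 (0.186), and TATAAA was most frequent at 0 (27.2%) and least at 1 to under 10 FPKM (5.92%).

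Promoters of 6 genes on which the account of the tumor cells turns show this range, from the most abundant protein-coding gene (Eef1a1) through vimentin and the keratin pair Krt8 and Krt18 to the epithelial gene Epcam and the milk protein gene Csn2, which was listed at 0. Each run covers the 100 bases before the start and the 30 from the start on, 5′ to 3′ on the coding strand, and capitals mark every CG and any TATAAA. The windows are on GRCm38.p6 at chr9:78481695-78481824 (minus strand) for Eef1a1, chr2:13574211-13574340 (plus) for Vim, chr15:102004313-102004442 (minus) for Krt8, chr15:102028116-102028245 (plus) for Krt18, chr17:87635879-87636008 (plus) for Epcam and chr5:87699396-87699525 (minus) for Csn2.
Eef1a1: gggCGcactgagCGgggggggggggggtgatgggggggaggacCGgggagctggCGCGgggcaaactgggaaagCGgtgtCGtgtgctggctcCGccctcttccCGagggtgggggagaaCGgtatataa
Vim: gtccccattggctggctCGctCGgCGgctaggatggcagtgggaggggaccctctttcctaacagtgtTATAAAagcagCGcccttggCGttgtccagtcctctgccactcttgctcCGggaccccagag
Krt8: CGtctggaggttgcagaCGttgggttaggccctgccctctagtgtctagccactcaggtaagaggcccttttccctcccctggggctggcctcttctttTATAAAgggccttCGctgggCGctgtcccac
Krt18: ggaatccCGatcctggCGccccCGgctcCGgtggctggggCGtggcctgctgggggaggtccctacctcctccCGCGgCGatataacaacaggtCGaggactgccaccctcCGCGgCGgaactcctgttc
Epcam: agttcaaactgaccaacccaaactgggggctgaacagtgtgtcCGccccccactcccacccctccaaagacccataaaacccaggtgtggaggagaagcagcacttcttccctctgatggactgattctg
Csn2: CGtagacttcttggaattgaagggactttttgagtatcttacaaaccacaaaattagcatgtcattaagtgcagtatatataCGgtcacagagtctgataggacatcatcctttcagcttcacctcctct
The windows hold 10 CG in Eef1a1, 6 in Vim, 4 in Krt8, 12 in Krt18, 1 in Epcam and 2 in Csn2. TATAAA stands 32 bases before the listed start of Vim and at the listed start of Krt8. Krt18, with the most CG of the 6 windows, was at 0.378 and 0.658 FPKM against 107 and 143 for Krt8, so these letters alone did not order the 6 genes.

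The tumor transcriptome was concentrated in few genes of the protein-making machinery. The 10 most abundant rows held 8.20% of the summed FPKM in library A and 10.2% in B, and the 100 most abundant held 35.1% and 39.1%. Of those 100 rows, 63 were ribosomal protein genes. Eef1a1, the elongation factor that brings aminoacyl-tRNA to the ribosome, led the protein-coding genes with 2816 and 3059 FPKM. Next came ribosomal proteins, among them Rpl13 (1898 and 2661), Rpl41 (1695 and 2829), Rps12 (1786 and 2528), Rps2 (1644 and 2411) and Rplp1 (1683 and 2339). Only 3 of the 30 most abundant rows code for neither a ribosomal protein nor an elongation factor and are not a copy or part of such a gene: vimentin at rank 11, Gapdh, a glycolytic enzyme, at rank 21, and S100a6, a calcium-binding protein, at rank 23. Vimentin stood at 1447 and 1660.2 FPKM, Gapdh at 1229 and 1233 and S100a6 at 923 and 1518.

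Some of the highest values belong to rows whose counts cannot be separated from those of another gene. The top row, Mir5121, is 74 bases long and lies within the span of Rpl13a, and its 15984 and 23623 counts gave 4758 and 7169.7 FPKM. Gm15772 lies within Rpl26 and had the same 26207 and 34592 counts. Of 276 expressed rows shorter than 200 bases, 254 lie within a longer row, among them Mir5107 in Cd74 and Mir5114 in Scd2. Such rows and near-identical gene copies, as among the hemoglobin, H2 and Klra genes, are uncertain as measures of their own gene.

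The tumors had few transcripts of epithelial genes and many of mesenchymal ones. 2 of 24 luminal epithelial list members were expressed, against 42.5% of all rows. Krt8, a keratin of simple epithelia, was the exception with 107 and 143 FPKM, while its filament partner Krt18 was at 0.378 and 0.658 and Krt19 at 0.529 and 1.37. The adhesion proteins Epcam and Cdh1 (E-cadherin) stood at 0.160 and 0.218 and at 0.140 and 0.148 FPKM. Spint2, a protease inhibitor of epithelial surfaces, was the other expressed member with 9.29 and 12.0. Of these genes, Krt19 lay on both sides of the 1 FPKM line, and Epcam and Cdh1 were far below it in both libraries. Markers of the outer, basal layer were also low, with Krt5 at 0.0201 and 0.0205, Krt14 at 0.133 and 0.257 and the transcription factor Trp63 at 0.131 and 0.0223, and 5 of 19 of that list were expressed. The 5 were led by the contractile proteins Acta2 (9.44 and 10.3) and Actg2 (4.02 and 3.04), which smooth muscle shares. Among milk proteins Csn2 and Wap were listed at 0, and Mfge8, a secreted protein that also marks apoptotic cells for phagocytes, was at 63.7 and 82.1.

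Of the mesenchymal list, 20 of 22 members were expressed, with list medians of 70.3 and 60.2 FPKM. Behind vimentin and S100a6 came Lgals1, a galectin (532 and 639), Anxa2, a membrane-binding protein (404 and 465), and S100a4 (358 and 444). The repressors of the epithelial program were lower but present in both libraries, with Zeb1 at 5.51 and 4.42, Zeb2 at 5.75 and 4.30, Snai1 at 8.64 and 7.53, Twist1 at a mean of 13.8 and Twist2 at 18.1 and 24.9 FPKM. The exceptions were Cdh2 (N-cadherin) at 0.0379 and 0.0338 and Snai2 at 0.110 and 0.0782. Several of these genes are also used by fibroblasts and macrophages, and which cells they came from was not tested.

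**Figure D2:**
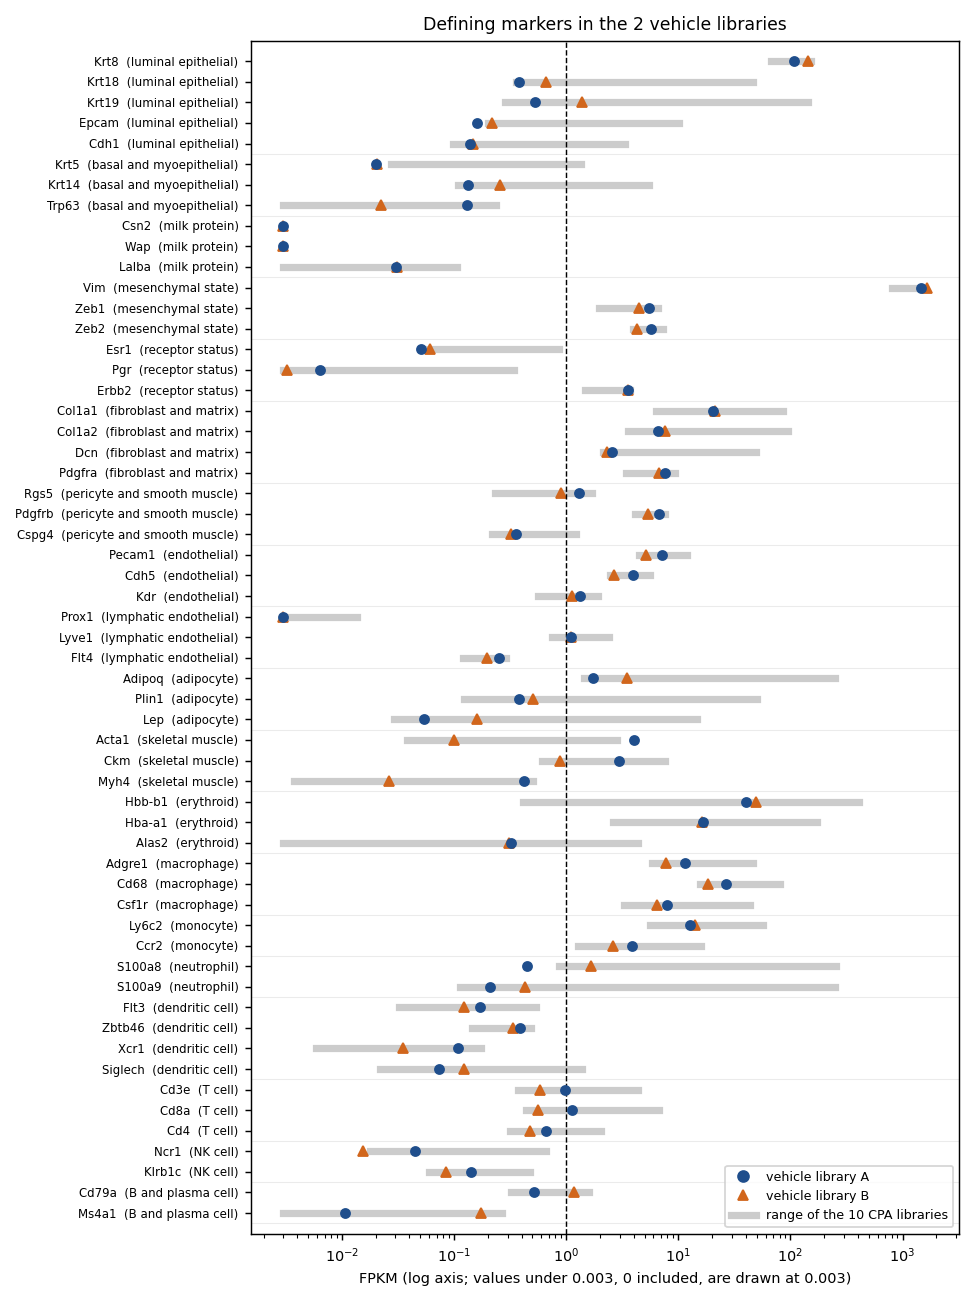
FPKM of defining markers of each lineage and cell type in vehicle library A (circles) and B (triangles), with the range over the 10 CPA libraries as a grey bar and the 1 FPKM line dashed. Vim stood at 1447 and 1660.2 and Krt8 at 107 and 143 FPKM while Epcam, Cdh1, Krt5 and Trp63 stayed under 1, and Acta1 and Myh4 were far apart between the libraries.

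The receptors used to class breast tumors were low. Esr1, the estrogen receptor, was at 0.0503 and 0.0615 FPKM, Pgr, the progesterone receptor, at 0.00639 and 0.00326, and Esr2 was listed at 0. Erbb2 (HER2) was the only one of the 8 listed receptors that was expressed, with 3.57 and 3.59 FPKM, and Egfr was just under the line with 0.937 and 0.597. A supplementary figure of the study differs from these deposited values, listing Esr2 above Egfr and classing the tumors as positive for Esr2. The study's main text calls them negative for it. Other receptor tyrosine kinases reached higher levels, and 13 of 25 were expressed, 52% against 42.5% of all rows. Axl, which binds Gas6, was highest with 68.5 and 55.5, followed by Fgfr1 (42.3 and 39.8), the ephrin receptor Epha2 (17.9 and 13.8), the collagen receptor Ddr1 (13.1 and 13.2) and Met, the receptor of hepatocyte growth factor (13.3 and 9.92). Kit was at 0.689 and 0.507 and Fgfr2 at 0.0412 and 0.0252, both under 1 FPKM in each library.

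All 26 genes of the RAS and MAPK list were expressed. Nras stood at 21.2 and 20.9 and Hras at 12.2 and 17.8 FPKM, the kinase Mapk3 (ERK1) at 32.2 and 39.1 and the ETS factor Etv4, often raised by this pathway, at 24.6 and 29.6. Among drivers and brakes of growth, 29 of 35 were expressed, with Myc at 98.2 and 83.8, the G1 kinase Cdk4 at 96.1 and 113, cyclin D1 (Ccnd1) at 65.1 and 59.7 and Trp53 at 43.9 and 43.8. The tumor suppressor Rb1 (2.27 and 1.61) was lower, and the CDK inhibitor gene Cdkn2a was at 0.0776 and 0.0593 with 4 and 3 counts. All 36 replication and mitosis genes were expressed. Pcna, the sliding clamp of DNA polymerase, was at 69.1 and 75.9, Ube2c, a ubiquitin-conjugating enzyme of mitotic exit, at 68.4 and 68.1, and topoisomerase Top2a at 43.1 and 37.8. The proliferation marker Mki67 was at 4.02 and 2.83.

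Connective tissue genes were present with a matrix dominated by Sparc and collagen VI. Of the fibroblast and matrix list 18 of 25 were expressed. Sparc, a secreted collagen-binding protein, stood at 157 and 179 FPKM, Col6a1 at 125 and 125 and Col6a2 at 83.2 and 88.0. The fibrillar collagens were lower, with Col1a1 at 20.2 and 21.3 and Col1a2 at 6.65 and 7.65, and the proteoglycan Dcn was at 2.58 and 2.33. Fap, a surface protease of activated fibroblasts, and Lum, a small proteoglycan, were under 1 FPKM in both libraries with 0.0489 and 0.125 and 0.393 and 0.563. All 12 basement membrane genes were expressed, led after Sparc by Col4a1 (64.4 and 60.9) and Col4a2 (27.9 and 25.5). Among matrix proteases and their inhibitors 21 of 24 were expressed, the highest being the lysosomal cathepsins Ctsd (203 and 260.3), Ctsb (194 and 188) and Ctsl (159 and 152), with the membrane-bound Mmp14 at 84.5 and 86.4.

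Vessel genes were at low levels. The endothelial list had 18 of 25 members expressed, with the junction protein Pecam1 at 7.16 and 5.12, Cdh5 (VE-cadherin) at 3.98 and 2.65 and the VEGF receptor Kdr at 1.31 and 1.13 FPKM. Egfl7, secreted by endothelium, was highest with 18.3 and 25.7. Of the pericyte and smooth muscle list 6 of 13 were expressed, 46.2% against 42.5% of all rows. Pdgfrb was at 6.73 and 5.41 and Rgs5 at 1.30 and 0.894. The lymphatic regulator Prox1 was listed at 0 and Lyve1, which macrophages can share, was at 1.10 and 1.10. Of the secreted factors that act on vessels Pdgfa (38.5 and 47.9) and adrenomedullin (Adm, 26.7 and 26.9) were highest, and Vegfa was at 11.1 and 9.75. Red cell transcripts were present in both libraries, with Hbb-b1 at 40.1 and 48.9 and Hba-a1 at 16.6 and 16.4.

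The 2 vehicle libraries were close for most genes. Among expressed rows, 106 differed by more than 2-fold between them (1.03% of expressed rows, from FPKM plus 0.1), and 60 of these are shorter than 200 bases. The median of the absolute log2 ratio was 0.21. The ratio went with gene length, from a median log2 B over A of 0.18 in expressed rows of 42 to 1457 bases to -0.29 in those of 4572 bases or more. Of all expressed rows 41.5% were higher in B. Among mostly short genes, 44 of 51 large and 32 of 34 small ribosomal subunit genes and 34 of 37 complex I genes were higher in B. What part of any difference between A and B goes with length was not tested.

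Muscle and fat genes differed between the libraries by more than this. All 15 skeletal muscle genes were higher in library A. Of the 7 that were expressed, 5 were so by more than 2-fold, against 0.661% of all expressed rows. Skeletal actin Acta1 was at 4.01 and 0.100 FPKM from 286 and 7 counts, the troponin Tnnc2 at 3.91 and 0.0649 from 123 and 2, and the myosin Myh1 at 0.750 in A with 205 counts and at 0 counts in B. Creatine kinase Ckm, with 2.97 and 0.889, differed least among the 3 defining muscle genes. Fat cell genes went the other way, 15 of 16 being higher in B, 3 of the 9 expressed ones by more than 2-fold, against 0.37% of all expressed rows. Fabp4, a fatty acid carrier of fat cells, was at 24.8 and 53.6, the secreted protease Cfd (adipsin) at 16.4 and 41.8 and the fat cell hormone Adipoq at 1.73 and 3.50. Of the 17 B and plasma cell genes, 12 were higher in B and 4 in A, none of the 3 expressed ones was more than 2-fold apart, and the ratio of the sums, B over A, was 1.08. Cd79a, a chain of the B cell receptor, was at 0.515 and 1.18 from 31 and 70 counts. The summed muscle list was 24.7 and 5.48 FPKM, and the 10 CPA libraries ran from 4.74 to 70.0. Vehicle library B lay near the low end of that range. Library A lay above all CPA libraries but 1 of day 12 (70.0), the next highest being at 21.2. All muscle genes of A were nevertheless low in absolute terms, with none at 10 FPKM.

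**Figure D3:**
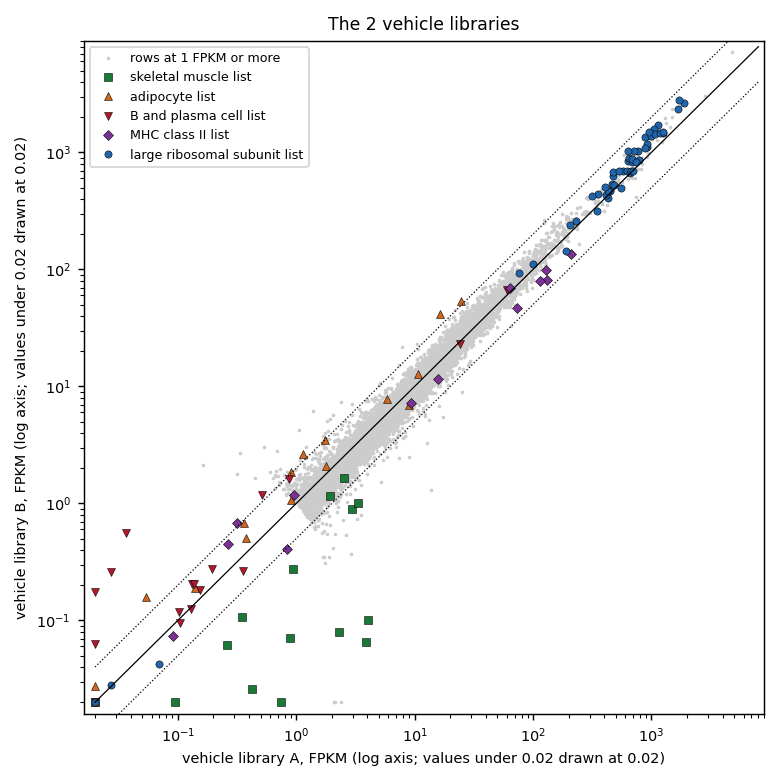
FPKM in vehicle library A (x axis, log scale) against library B (y axis, log scale) for expressed rows in grey and members of 5 lists in colour, with the line of equality solid and 2-fold lines dotted. Skeletal muscle genes lie below the equality line (all 15 higher in A), 15 of 16 fat cell genes lie above it, and most large ribosomal subunit genes sit slightly above it.

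Macrophage genes had the highest summed level of the white blood cell lists, with 1238 and 1242 FPKM. Such sums depend on the number of members and on a few high genes, here Cd63, Apoe and Lyz2 among others, so they do not rank cell types by number. Of the macrophage list 23 of 26 members were expressed, with medians of 7.97 and 6.62 FPKM, and the surface protein Adgre1 (F4/80) was at 11.5 and 7.78, Cd68 at 26.5 and 18.4 and the growth factor receptor Csf1r at 7.99 and 6.52. All 3 were lower in library B. The lysozyme gene Lyz2 (168 and 154), Ctss (129 and 98.8) and Apoe, a lipid carrier (188 and 207), were far higher, and Cd63, with 294 and 399.8, is a lysosomal protein that many cell types share. Csf1, the ligand of Csf1r, was at 18.7 and 16.4, and Il34, its other ligand, at 27.3 and 31.2. Of activation state genes Tgfb1 was at 46.5 and 53.0, Spp1 (osteopontin) at 29.1 and 16.0 and Il1b at 11.7 and 6.11, while Arg1 (2.25 and 0.928) and Nos2 (0.811 and 0.473) were low. The monocyte genes Ly6c2 (12.7 and 14.2) and Ccr2 (3.86 and 2.61) were both expressed.

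The defining lymphocyte, neutrophil and dendritic cell markers that had a row were under 2 FPKM in both libraries. Other members of these lists, which other cells can share, were higher. No matching row was found for the neutrophil marker Ly6g or the T cell receptor chains Trac, Trbc1 and Trbc2. The same held for the immunoglobulin chains Ighm, Igkc, Iglc1 and Iglc2, so the levels of these genes could not be read. Of the T cell list 7 of 23 were expressed, with list medians of 0.655 and 0.555, and the highest was Thy1 with 5.48 and 4.85, which fibroblasts share. Cd3e was at 0.982 and 0.579, Cd8a at 1.13 and 0.560 and Cd4 at 0.655 and 0.472. The regulatory T cell factor Foxp3 was at 0.123 and 0.0457 FPKM with 22 and 8 counts. Killing proteins stood at 1.26 and 0.968 for granzyme B, 0.751 and 0.514 for perforin (Prf1) and 0.292 and 0.0744 for interferon gamma, and the NK receptor Ncr1 at 0.0452 and 0.0154. Of the NK cell list 5 of 18 were expressed, led by Klra4 (4.60 and 3.35), whose row overlaps other Klra rows. The neutrophil proteins S100a8 and S100a9 were at 0.450 and 1.66 and at 0.210 and 0.429, and 2 of 17 of that list were expressed. Of the B and plasma cell list 3 of 17 were expressed, led by Sdc1, a proteoglycan that epithelial cells share (60.8 and 66.5), and Xbp1, a factor of the secretory pathway (24.2 and 23.2). All 4 defining dendritic cell genes were under 0.5 FPKM in both libraries, with Flt3 at 0.169 and 0.123 and Xcr1 at 0.109 and 0.0353. The dendritic cell list as a whole had 10 of 21 members expressed, 47.6% against 42.5% of all rows. It was led by Bst2, which is also one of the interferon-stimulated genes (287 and 413), Fscn1, an actin-bundling protein (76.4 and 81.5), and Cd40 (10.5 and 12.4). Mast cell proteases reached a few FPKM, with Mcpt4 at 7.14 and 4.24 and Cma1 at 4.38 and 3.86.

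Genes of antigen display by MHC class I were abundant. Of that list 24 of 25 were expressed, with B2m, the shared light chain, at 730.2 and 610.0 and the heavy chain H2-D1 at 699 and 742 FPKM, whose row overlaps 2 other H2 rows. H2-K1 was at 243 and 253 and the chaperone Calr at 184 and 196. MHC class II chains were lower than class I and higher in A, with Cd74, the invariant chain, at 211 and 136, H2-Aa at 132 and 81.7 and H2-Ab1 at 114 and 80.1. Genes that interferons raise were expressed in 37 of 38 cases, the highest being Bst2 (tetherin, 287 and 413), Ifitm3 (229 and 275) and Isg15 (57.8 and 87.9), while Ifit1 was at 15.9 and 18.3 and Mx1 at 4.58 and 3.74. The interferon receptors were expressed, with Ifnar1 at 4.21 and 3.52, Ifnar2 at 5.94 and 6.15 and Ifngr1 at 9.40 and 7.37. The type I interferon gene Ifnb1 had 9 and 12 counts (0.257 and 0.350 FPKM), and Ifna1, Ifna2 and Ifna4 were listed at 0. Among detectors of misplaced nucleic acid 17 of 19 were expressed, with Tmem173 (STING) at 11.0 and 9.71, Ddx58 (RIG-I) at 6.37 and 5.34 and Cgas at 0.996 and 1.12.

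Of 35 chemokines 15 were expressed, 42.9% against 42.5% of all rows. The monocyte attractants Ccl8 (58.4 and 48.9), Ccl2 (49.7 and 45.4) and Ccl7 (44.6 and 46.5) were highest. Ccl5 was at 24.7 and 25.8 and Cxcl10, a ligand of the chemokine receptor Cxcr3 of T cells, at 21.9 and 18.8, whereas Cxcl12 was at 0.412 and 0.207. The checkpoint list had 15 of 22 members expressed, led by Lgals3 (455 and 470.2), a galectin that macrophages and carcinoma cells share. Cd47, which restrains phagocytosis, was at 26.1 and 26.3, Lgals9 at 23.7 and 26.7 and Nt5e (CD73), which makes adenosine, at 19.6 and 15.1. Cd274 (PD-L1) was at 4.73 and 2.98 and its receptor Pdcd1 (PD-1) at 0.902 and 0.337, both higher in A.

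**Figure D4:**
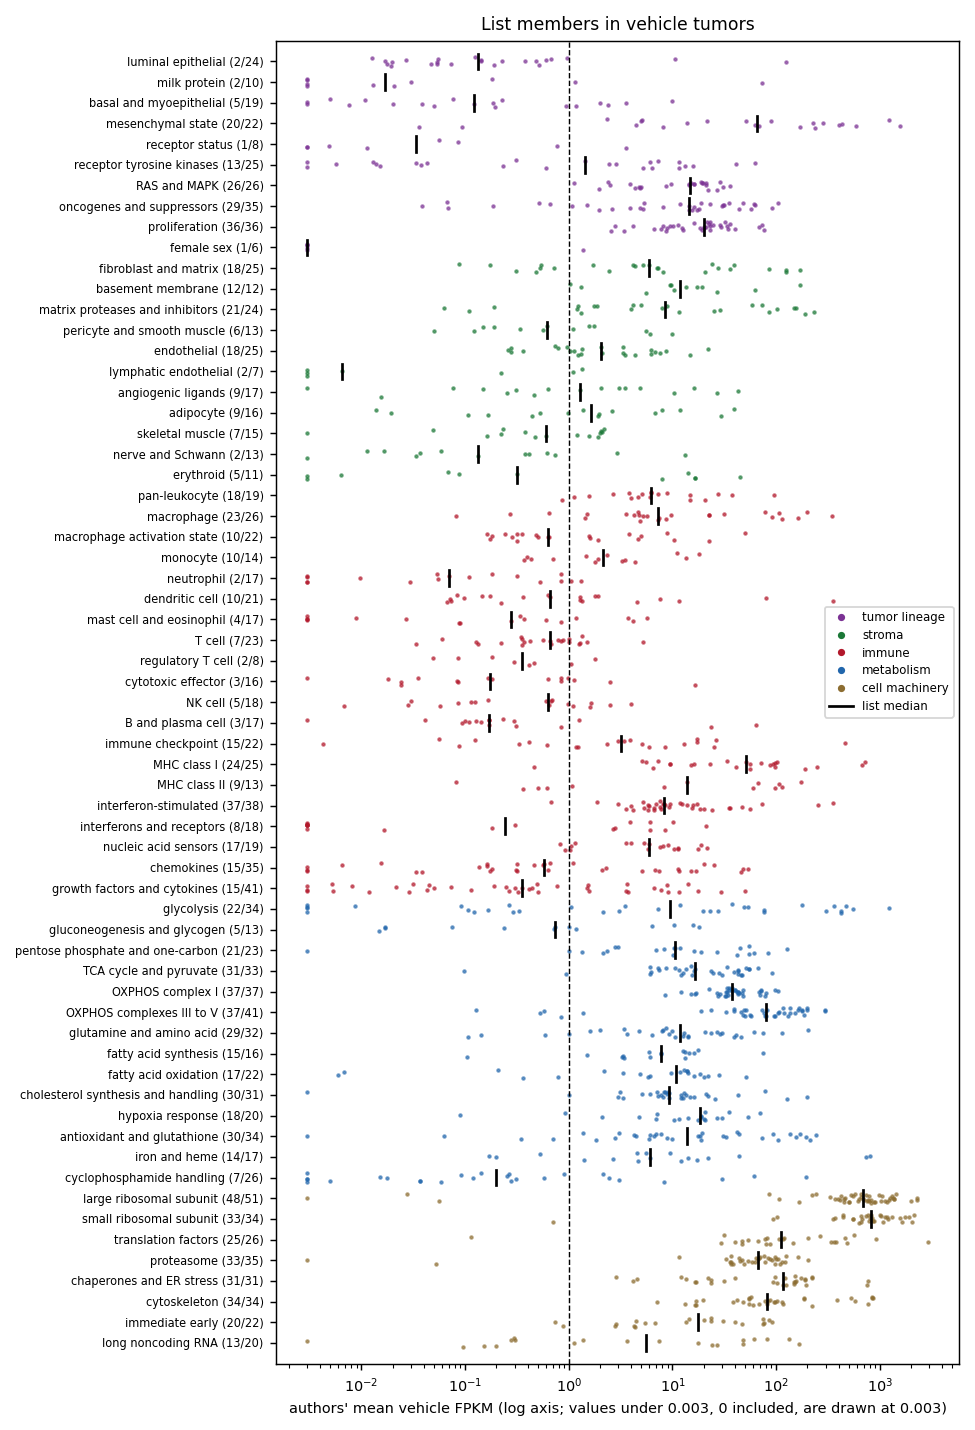
Authors' mean vehicle FPKM (log axis) of the members of each list with a matched row, coloured by theme, with the list median as a black bar and the number expressed of the number matched in brackets. Luminal epithelial (2/24) and neutrophil (2/17) genes lie mostly left of the dashed 1 FPKM line, while proliferation (36/36) and respiratory complex I (37/37) genes lie right of it.

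Sugar breakdown genes were among the most abundant of the tumor. In glycolysis 22 of 34 listed genes were expressed, the others being mostly isoforms of other tissues such as the muscle and fat glucose transporter Slc2a4 (0.140 and 0.191). After Gapdh came Eno1 (522 and 571), Ldha, which makes lactate (448 and 493), Tpi1 (377 and 475) and Pkm (384 and 453). The glucose transporter Slc2a1 was at 50.0 and 57.0 and hexokinase Hk2 at 11.6 and 12.1 FPKM. Of the hypoxia list 18 of 20 were expressed, with Ndrg1 at 63.1 and 77.7, Bnip3 at 34.1 and 35.6 and Hif1a at 30.8 and 29.3, while Car9, a carbonic anhydrase strongly raised by low oxygen, was at 2.12 and 2.08. The serine synthesis enzyme Phgdh was at 103 and 149 and the folate enzyme Shmt2 at 52.9 and 56.7. Odc1, the first enzyme of polyamine synthesis, was at 179 and 225 and glutamate dehydrogenase Glud1 at 114 and 113, whereas the cystine transporter Slc7a11 was at 0.115 and 0.0974.

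Respiration genes were expressed almost throughout. All 37 complex I subunits and 37 of 41 listed subunits of complexes III to V were at 1 FPKM or more, with list medians of 33.8 and 40.5 and of 70.9 and 85.5 FPKM. The highest were Cox4i1 (249 and 342), a subunit of cytochrome oxidase, and Atp5b (282 and 315), the catalytic subunit of ATP synthase. The 4 not expressed, Cox4i2, Cox6a2, Cox6b2 and Cox8b, are isoforms of lung, muscle, testis or brown fat. In the citric acid cycle and pyruvate list 31 of 33 were expressed, led by Mdh2 (85.0 and 97.2) and Sdhb (51.9 and 81.2). Genes of the mitochondrial genome were not analysed here.

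Lipid genes were expressed at moderate levels. Scd2, a fatty acid desaturase, was the highest of the synthesis list with 80.7 and 69.7 FPKM, against 18.1 and 17.0 for fatty acid synthase (Fasn) and 12.6 and 13.7 for Scd1. Of cholesterol genes 30 of 31 were expressed, with Fdps at 62.0 and 94.0 and Sqle at a mean of 20.9. In fatty acid oxidation Etfb was highest (43.1 and 60.3) and the carnitine transferase Cpt1a was at 3.70 and 2.97. The ferritin chains Fth1 (a mean of 809) and Ftl1 (663 and 805), which store iron, were among the 100 most abundant rows, and heme oxygenase Hmox1 was at 37.7 and 49.8. Among peroxide and glutathione enzymes Txn1 (213 and 267), Sod1 (170.5 and 256) and Gstp1 (123 and 266) were highest, Gstp1 being 2.16 times higher in B.

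Of 26 listed genes that handle the drug of the time course, 7 reached 1 FPKM in the untreated tumors. This was 26.9%, against 42.5% of all rows. Gstp1, a glutathione transferase, was the highest with 123 and 266 FPKM and made up most of the list's sum of 226 and 385, followed by the aldehyde dehydrogenase Aldh2 (56.3 and 67.1). Cyp2b10, a mouse liver cytochrome P450 of the family that activates CPA, was listed at 0, and Cyp2b13 was at 0.117 and 0.120. Aldh1a1, an aldehyde dehydrogenase that removes the activated drug, was at 0.119 and 0.166. Por, the electron donor of P450 enzymes, was at 26.6 and 33.9 and the drug exporter Abcc1 at 9.53 and 7.04.

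Machinery of protein synthesis, folding and breakdown was expressed nearly in full. 48 of 51 large and 33 of 34 small subunit genes were expressed, with medians of 633 and 696 and of 699 and 940.3 FPKM, and those not expressed were the tissue-limited copies Rpl3l, Rpl10l and Rpl39l and the row Rps4l. The ribosomal lists together took 5.75% and 4.34% of the counts of library A and 7.03% and 5.56% of those of B for the large and the small subunit. Of the chaperones all 31 were expressed, led by Hspa8 (777 and 725) and Hsp90ab1 (699.9 and 822). The stress-induced chaperone Hspa1b, at 10.5 and 23.1, was higher in B, and both values lay above the 2.46 to 9.38 FPKM of the 10 CPA libraries. The share of all expressed rows outside their CPA range in this way was not counted. Proteasome genes were expressed in 33 of 35 cases. Fast response factors were led by Myc, Klf2 (71.7 and 99.2) and Fosl1 (78.6 and 71.2), with Fos at 5.74 and 3.24 and Egr1 at 0.817 and 0.643.

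Set beside the CPA libraries, most vehicle levels carried over. All 5 comparisons share the vehicle value. Of the expressed rows 8219, or 79.9%, were within 2-fold of vehicle in every CPA group. On day 1, 0.107% were more than 2-fold higher and 0.214% more than 2-fold lower than in vehicle. The same shares were 0.457% and 0.545% on day 2, 0.963% and 0.622% on day 3 and 4.46% and 0.467% on day 6. On day 12 these shares were 8.47% and 10.3%, the median of all expressed rows having moved by -0.29 on the log2 scale. The ribosomal genes were within 2-fold in 47 of 48 cases for the large and 33 of 33 for the small subunit, and the proteasome genes in 33 of 33. The macrophage list had 2 of 23 such members. The 7 expressed T cell, 9 adipocyte, 7 skeletal muscle and 9 MHC class II genes included none.

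Some vehicle sums lay at the edge of, or outside, the range of the CPA libraries. The summed hypoxia list was 381 and 399 FPKM in vehicle and 237 to 357 in the CPA libraries, all 10 of which were below both vehicle libraries. The RAS and MAPK sum was likewise above all 10, with 366 and 373 against 279 to 363. Glycolysis stood at 4152 and 4503 against 2208 to 4249.5, 9 of the 10 being below both vehicle libraries. Vimentin itself, at 1447 and 1660.2, lay above its CPA range of 809 to 1364 on the deposited scale. How many of all expressed rows lie outside their CPA range in both vehicle libraries was not counted. In the other direction, the pericyte and smooth muscle sum of 28.8 and 26.9 was below all 10 CPA libraries (31.4 to 88.3), as was the basal list, with 21.1 and 20.6 against 21.4 to 51.2. Acta2 belongs to both of these lists and was at 9.44 and 10.3 in vehicle and 11.8 to 25.9 in the CPA libraries. Besides hypoxia, RAS and MAPK, pericyte and basal, none of the 64 gene lists had all 10 CPA libraries on the same side of both vehicle libraries. How many lists would do so by chance was not tested. Rescaled to TPM, or recentred on the median expressed row, the CPA libraries below both vehicle libraries were 8 or 9 of 10 for hypoxia, 3 or 7 for RAS and MAPK and 8 or 9 for glycolysis. Those above both were 9 or 10 for the pericyte and 10 or 9 for the basal list, so the RAS and MAPK sum moved most with the scale. The macrophage sum of 1238 and 1242 lay within the CPA range of 1157 to 9664, whose top was reached on day 12. The red cell sum, at 96.3 and 104 FPKM in vehicle, was below both vehicle values in the 6 libraries of days 1 to 3, the lowest being 16.5, and above both in the 4 of days 6 and 12, the highest being 899.9. Its member Tfrc was at 15.3 and 13.1 in vehicle and 7.85 to 20.4 in the CPA libraries, against 0.410 to 409 for Hbb-b1. The overlapping rows Hba-a1 and Hba-a2 held the same counts (845 and 818 in vehicle), which the sum takes in for both rows. Fat genes, at 74.1 and 136 in vehicle, reached 10909.8 in 1 day 12 library. The luminal keratin Krt18 and Epcam, under 1 FPKM in vehicle, ran up to 46.5 and 10.2 FPKM, with medians of 0.589 and 0.342 over the 10 CPA libraries. The luminal sum was 378 in the same day 12 library and 104 to 173 in the other CPA libraries. What part fat or normal mammary tissue has in these values was not tested.

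**Figure D5:**
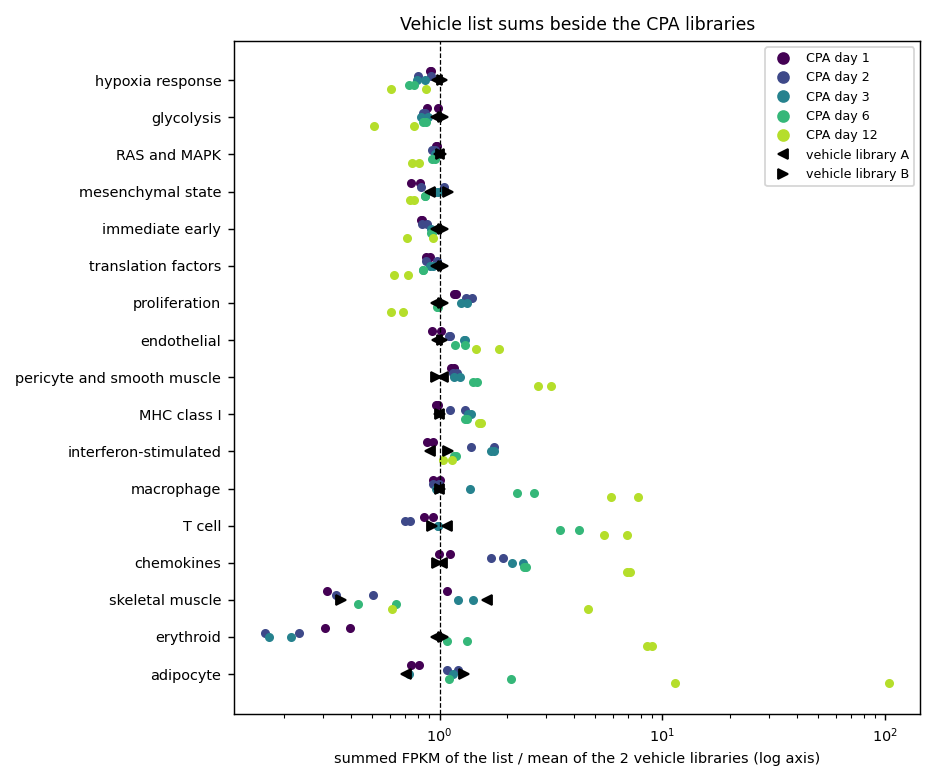
Summed FPKM of 17 lists in each library, divided by the mean of the 2 vehicle libraries (log axis), with vehicle libraries as black triangles and CPA libraries as points coloured by day. On this scale the hypoxia and the RAS and MAPK sums of all 10 CPA libraries lie below both vehicle libraries (8 and 3 of 10 after rescaling to TPM), pericyte and smooth muscle sums lie above them, and the muscle sums of the vehicle libraries lie far apart (24.7 and 5.48 FPKM).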

How the data were processed

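Stranded libraries of polyA RNA were sequenced. Per the labels, the authors used TopHat2, featureCounts and edgeR with mm9 and gave no versions. The deposited table holds 1 FPKM value per gene and group, made by the authors as the mean over the group's 2 libraries. The ratios, fold changes and p-values of the authors' comparisons, also in the table, were not used.

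Each mean was solved for whole-number gene length, library totals and counts. All 24197 rows in all 6 groups had a solution. With lengths found from the CPA groups alone, 10279 of 10282 expressed vehicle rows did, against 1 when values were raised by a relative 1e-06. The recovery was tested on simulated data with the library totals already found (1000 of 1000 rows recovered). A row passed when its counts divided by length agreed, so the totals and the raw counts were not tested this way. Recovered counts of rows with very few counts are the least certain.

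Expressed means 1 FPKM or more, as in the study. Folds use FPKM plus 0.1. Names were matched to RefSeq (22846 by symbol, 1191 by synonym), 27 had become dates, and 28 of 1478 entries of the 64 gene lists had no row and were not analysed here. Named genes are the 30 most abundant rows and, per list, the defining members, the 4 highest others and up to 4 under 1 FPKM. Others (Snai1, Twist1, Twist2, Hspa1b, Fdps and Sdhb where the rule did not pick them, and the germline rows) were chosen after their values were seen. A few of the named genes are not reported here. Members, lists and rule were chosen with earlier results of these data known. No column of per-sample values was left unused. Calculations used Python 3.11.15, pandas 2.3.3 and NumPy 2.4.6, and plots matplotlib 3.10.9.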

Additional observations from a re-analysis of the deposited data

How the results depend on the processing

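No paired analysis was possible because no test between groups was run and the group means do not tell which library is which pool. The count of expressed rows (10282) ran from 8889 at a minimum of 2 FPKM to 12109 after rescaling to TPM, and was 10126 to 10356 with 1 library left out. Scaled to the totals counted over rows, an alternative chosen after seeing the data, it was 11447, so genes near 1 FPKM depend on the scale. The share of the 100 most abundant rows was 35.1 to 39.1% by library. The expressed list members (1031) ran from 940 to 1178, and 50 lay on different sides of 1 FPKM in the 2 libraries. The rows within 2-fold of vehicle ran from 7305 to 9640, the latter without the day 12 group. None of these alternatives moved a count by more than 1.5 times. The 5 copies of the vehicle column in the table held the same values.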

Other observations

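Genes known from the placenta and the germ line were expressed in the vehicle tumors, and they were chosen for description after their values were seen. Esx1, an X-linked homeobox gene of the mouse placenta and testis, stood at 111 and 119.6 FPKM from 8037 and 8518 counts, rank 303 of all rows and close to Krt8. In the CPA libraries Esx1 ran from 30.7 to 119. Tex19.1, a germ cell and placenta gene, was at 33.1 and 43.8, and Tex11, an X-linked meiosis gene, at 5.42 and 4.91. Of 30 Rhox rows, a cluster of X-linked homeobox genes of reproductive tissue, 4 were expressed, with Rhox2h highest at 13.8 and 19.9, and 20 were listed at 0. Among all rows on the X chromosome 26.5% were expressed. Of 10 Xlr rows, an X-linked lymphocyte and germ cell family, 5 were expressed, with Xlr3c at 16.7 and 17.8 FPKM. Rhox2 and Xlr genes are near-identical copies, so which copy the counts came from is uncertain.

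Among genes of 200 bases or more that the report did not name, some differed by more than 2-fold between the vehicle libraries. They include Plac9a, at 2.12 FPKM from 130 counts in A and 0 counts in B, and Glycam1, a mucin of lymph node vessels and milk, at 0.165 and 2.12 from 5 and 63 counts. Retnla, a macrophage and fat tissue secreted protein, was at 1.40 and 6.20 and haptoglobin (Hp) at 7.78 and 21.8, both higher in B, while the macrophage metalloprotease Mmp12 was at 7.39 and 2.45 and higher in A.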
